A study of Mus musculus with 2 samples.

Results

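The genes described here encode proteins of the lipid droplet surface and the main triglyceride lipase with its inhibitor. They are the 3 CIDE genes (Cidea, Cideb, Cidec), the 5 perilipin genes (Plin1 to Plin5), Pnpla2 and G0s2, 10 genes in all of the 17431 with a read in either library. They were selected on their roles by symbol, with their read counts in these same 2 libraries already known, so their values are a description and none was put to a test. All 10 were found in both libraries. Only RNA was measured, so the values say nothing of protein or of stored lipid.

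The study set a culture of skin-derived precursors (SKPs) beside a culture of dermal fibroblasts, both from the dermis of BALB/c mice with no genetic change in the labels. SKPs are dermal cells that can give rise to several lineages and are enriched by their growth in FGF2 and EGF. The SKP culture came from mice at postnatal day 4 and grew in DMEM/F12 with 40 ng/ml FGF2, 20 ng/ml EGF, 2% B27 supplement, penicillin and streptomycin. The fibroblast culture came from mice at postnatal day 3 and grew in DMEM with 10% fetal bovine serum. Each culture gave 1 poly(A) RNA library, so cell type, medium and age cannot be told apart, and no difference below has a replicate check. The number of animals behind a culture is not stated. The SKP library had 19563021 reads mapped to genes and the fibroblast library 19084469, and 1 read in a gene of 1 kb was worth 0.0528 and 0.0543 RPKM in the SKP and the fibroblast library (reads per gene, corrected for gene length and for the depth of the library). The SKP and dermal fibroblast marker lists, each taken as a whole, did not set the labelled cell types apart. Single markers differed, from Lum at a SKP over fibroblast ratio of 52.4 to Thy1 at 0.315. All 10 dermal fibroblast markers reached RPKM 1 in each library, with 4 higher and 2 lower in the SKP library by the rule given below. Of the 10 SKP markers 10 did in the SKP library and 9 in the fibroblast library. Among them 2 were higher and 1 was lower in the SKP library, with a median log2 ratio of -0.18. By the same rule 12.1% of all genes that passed were higher and 6.41% were lower.

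Lipid droplets store triglyceride and sterol esters under a single layer of phospholipid, and perilipins coat that layer and control which lipases reach the core. CIDE proteins gather where droplets touch and pass lipid from the smaller to the larger one, which in white fat cells gives the single large droplet. Pnpla2 encodes adipose triglyceride lipase, which takes the first fatty acid off triglyceride, G0s2 encodes a small protein that binds and inhibits it, and Plin1 holds back its co-activator Abhd5 until protein kinase A is active. Plin1, Plin4 and Cidec are known mainly from fat cells, Plin2 and Plin3 from nearly all cells, Plin5 from oxidative tissues such as heart and brown fat, Cidea from brown fat and sebaceous glands, and Cideb from liver.

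RNA of the fat cell members of the set was far more abundant in the SKP library. Cidec, Plin1, G0s2, Plin4 and Pnpla2 were at least 2-fold higher there, Plin2 and Plin3 were higher by less than 2-fold, and Cidea, Cideb and Plin5 had 6 reads or fewer in each library. A gene was called at least 2-fold higher or lower when it had RPKM of at least 1 and 20 reads in either library and when its 95% exact counting interval left out equality. By that rule 7 of the 10 genes passed the minimum level, 5 were higher, 0 were lower and 2 were neither. Over all 12053 genes that passed, 12.1% were higher in the SKP library and 6.41% were lower, and since the set was chosen with these values known nothing is read from the comparison. Cidec, Plin1, Plin4 and G0s2 passed the minimum level through the SKP library alone. The ratio was above 1 for all 10 genes, but the interval left out equality only for the 7 that passed. Of all 17431 genes 8609 had a ratio above 1, and for 5138 the whole interval was above 1. Intervals here and below cover counting error only.

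**Figure D1:**
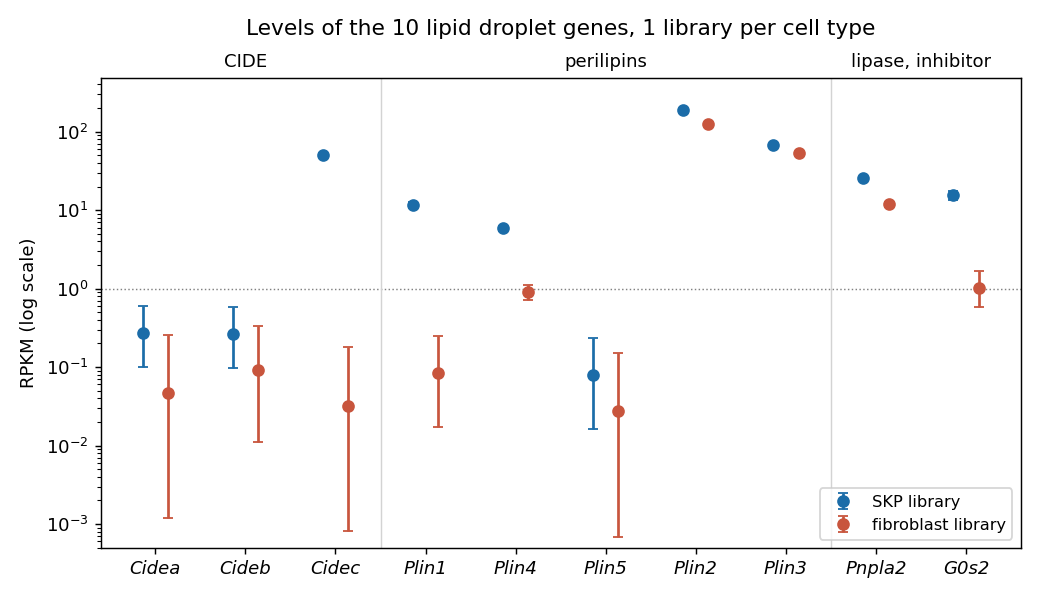
RPKM of each gene (log axis) in the SKP library (blue) and the fibroblast library (red), 1 library each, with 95% exact Poisson counting intervals and a dotted line at RPKM 1. Cidec stood at 51.1 RPKM in the SKP library against 0.0319 in the fibroblast library, while the points of Plin2 and Plin3 lie close together.

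Promoters are shown for the 2 genes that differed most between the libraries, Cidec and Plin1, and for Plin2, the most abundant of the set, which differed little. The RefSeq promoter table (build GRCm38.p6, while the reads were counted on mm9) held 9 of the 10 genes, with 2 starts each for Cidec and Plin5. The lines give the 250 bases before each start, all on the minus strand, in lower case with the motif matches in capitals. A CACGTG match of Plin2 runs across the start, so its line ends in CACG, the part before the start. The windows are chr6:113435761-113436010 and chr6:113434765-113435014 for the first and the second start of Cidec, chr7:79732777-79733026 for Plin1 and chr4:86670060-86670309 for Plin2.
Cidec, first start: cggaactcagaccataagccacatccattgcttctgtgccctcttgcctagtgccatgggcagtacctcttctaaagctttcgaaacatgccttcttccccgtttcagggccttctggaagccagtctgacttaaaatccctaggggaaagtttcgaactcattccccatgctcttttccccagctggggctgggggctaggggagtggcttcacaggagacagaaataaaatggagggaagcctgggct
Cidec, second start: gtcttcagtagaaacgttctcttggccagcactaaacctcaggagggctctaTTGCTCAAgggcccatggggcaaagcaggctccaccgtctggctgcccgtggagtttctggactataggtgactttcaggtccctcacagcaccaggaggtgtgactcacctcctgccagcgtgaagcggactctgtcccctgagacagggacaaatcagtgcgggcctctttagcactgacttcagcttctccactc
Plin1: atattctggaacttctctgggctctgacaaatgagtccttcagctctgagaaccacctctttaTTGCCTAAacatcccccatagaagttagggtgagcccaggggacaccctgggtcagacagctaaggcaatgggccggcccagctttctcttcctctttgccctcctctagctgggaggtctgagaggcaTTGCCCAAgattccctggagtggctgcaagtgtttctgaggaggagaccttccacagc
Plin2: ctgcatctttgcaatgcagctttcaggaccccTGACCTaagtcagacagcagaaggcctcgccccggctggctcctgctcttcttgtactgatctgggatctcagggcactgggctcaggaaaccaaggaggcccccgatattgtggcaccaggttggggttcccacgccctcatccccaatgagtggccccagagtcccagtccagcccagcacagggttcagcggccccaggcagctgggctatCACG

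In the full window of 250 bases before to 50 after the start, searched on both strands, Cidec and Plin1 held the looser C/EBP motif TTGCNNAA. Cidec had it once, in the second window with its first base at -198, and Plin1 had it at -187 and -58. C/EBP factors are regulators of fat cell genes, and 10.8% of all 32851 promoters in the table also held this motif. The stricter C/EBP motif TTGCGCAA, which the looser one contains, was in 0 of the 9 genes and in 0.183% of all promoters. AGGTCA, the element of nuclear receptors, was in Plin2 (on the other strand at -218) and Plin5, against 16.3% of all promoters. DR1, which is AGGTCA repeated in the same direction after 1 base and is bound by PPARG with RXR, was in 0 of the 9 genes and in 0.0396% of all promoters. Plin2 had the E-box CACGTG at -4 (7.15% of promoters) and Cideb had TATAAA at -172 (13.6%). A match is no evidence of binding, and a missing match says only that these letters were not in the window. CG pairs numbered 18 in the window of Pnpla2, 16 in each of the 2 windows of Plin5, 13 in G0s2, 10 in Plin2, 9 in Plin3, 7 in Plin4 and Cideb, 6 and 7 in Cidec and 2 in Plin1, against a median of 7 over all promoters.

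Among the CIDE genes Cidec, which encodes the fusion protein of white fat droplets also called FSP27, was the one with reads to compare. Cidec (gene ID 14311) had 1647 reads in the SKP library, or 51.1 RPKM, against 1 read in the fibroblast library, or 0.0319 RPKM. The SKP over fibroblast ratio was 1599.8, with an interval of 287 to 63227 that reflects the single fibroblast read. Reads covered 99.47% of the Cidec transcript in the SKP library and 2.88% in the fibroblast library, so the SKP reads were spread along the gene.

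Cidea (12683), the brown fat member, had 6 reads in the SKP library and 1 in the fibroblast library, at 0.272 and 0.0467 RPKM. Its ratio of 5.83 had an interval of 0.707 to 268, so a difference was not detectable at this depth. Cideb (12684), the liver member, had 6 reads in the SKP library and 2 in the fibroblast library (0.267 and 0.0916 RPKM), with a ratio of 2.91 (0.521 to 29.5). Cideb overlaps Nop9, a ribosome assembly gene, and 70.4% of the 49-base stretches of its GENCODE transcripts also occur in Nop9 transcripts. Nop9 had 609 reads in the SKP library and 708 in the fibroblast library, so even the few Cideb reads are uncertain in origin. No stretch of Cidea or Cidec was shared with another gene.

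Cidec made up 98.96% of the summed CIDE RPKM in the SKP library, where the sum was 51.6 RPKM. The fibroblast library had a CIDE sum of 0.17 RPKM from 4 reads, and no order of its 3 members can be read from so few. The perilipin sum was 276.5 RPKM in the SKP library against 179.5 in the fibroblast library, a ratio of 1.54, so the CIDE and perilipin families differed by very unequal amounts.

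**Figure D2:**
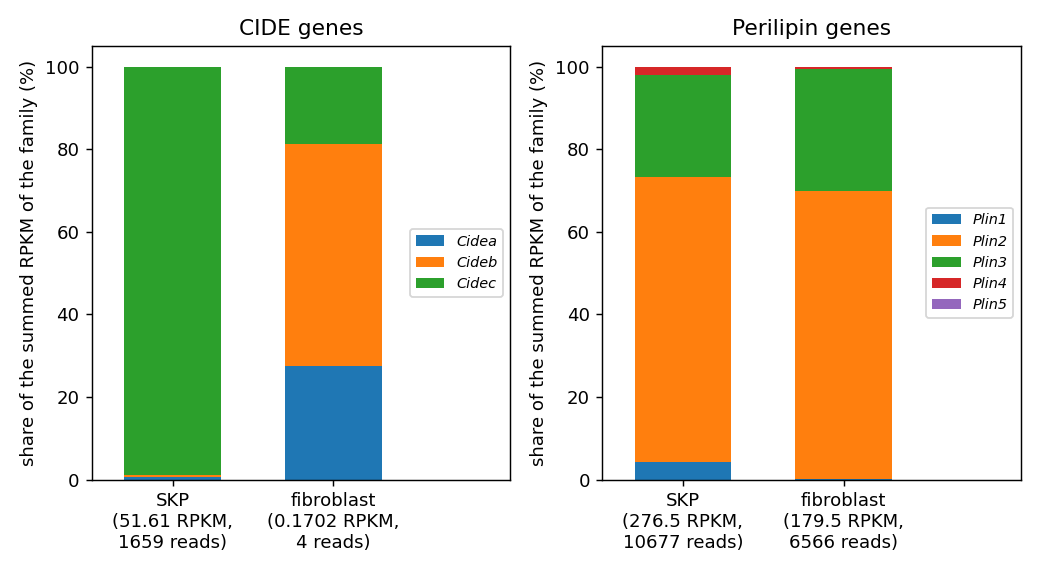
Share of each gene in the summed RPKM of its family, with the SKP bar left of the fibroblast bar and the sum and reads below each. Cidec filled 98.96% of the SKP bar, the fibroblast CIDE bar rests on 4 reads, and Plin2 took 69.2% and 69.8% of the perilipin RPKM in the SKP and the fibroblast library.

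Perilipins divided into an abundant pair, a pair higher in the SKP library and 1 near 0. Plin2 (11520), the droplet coat protein found in most cells, was the most abundant of all 10 genes in both libraries, with 6837 reads or 191 RPKM in the SKP library against 4355 reads or 125 RPKM in the fibroblast library. That was a ratio of 1.52 (1.47 to 1.58), under 2-fold. Plin3 (66905), which moves between the cytosol and young droplets, came next in both, with 2770 reads or 67.7 RPKM in the SKP library against 2112 reads or 53.1 RPKM in the fibroblast library. Its ratio was 1.27 (1.20 to 1.35). Among the genes with reads Plin2 and Plin3 lay at percentiles 98.2 and 94.0 in the SKP library and at 96.9 and 91.5 in the fibroblast library.

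Plin1 and Plin4, the perilipins of fat cells, were the ones that differed most. Plin1 (103968), the gatekeeper of hormone-driven lipolysis, had 425 reads or 11.6 RPKM in the SKP library against 3 reads or 0.0842 RPKM in the fibroblast library. The ratio was 138 (46.8 to 669.9). Plin4 (57435), which coats newly formed droplets, had 642 reads or 5.89 RPKM in the SKP library against 95 reads or 0.897 RPKM in the fibroblast library, a ratio of 6.56 (5.28 to 8.23). Plin1 took 4.19% of the perilipin RPKM in the SKP library against 0.0469% in the fibroblast library, and Plin4 took 2.13% against 0.4995%. The gene body of Plin4 overlaps Hdgfl2, a gene with 970 SKP and 1138 fibroblast reads, but no 49-base stretch of its transcripts was shared.

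Plin5 (66968), the perilipin that ties droplets to mitochondria, had 3 reads in the SKP library and 1 in the fibroblast library (0.0794 and 0.0272 RPKM), with a ratio of 2.91 (0.234 to 153). A difference was not detectable at this depth.

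**Figure D3:**
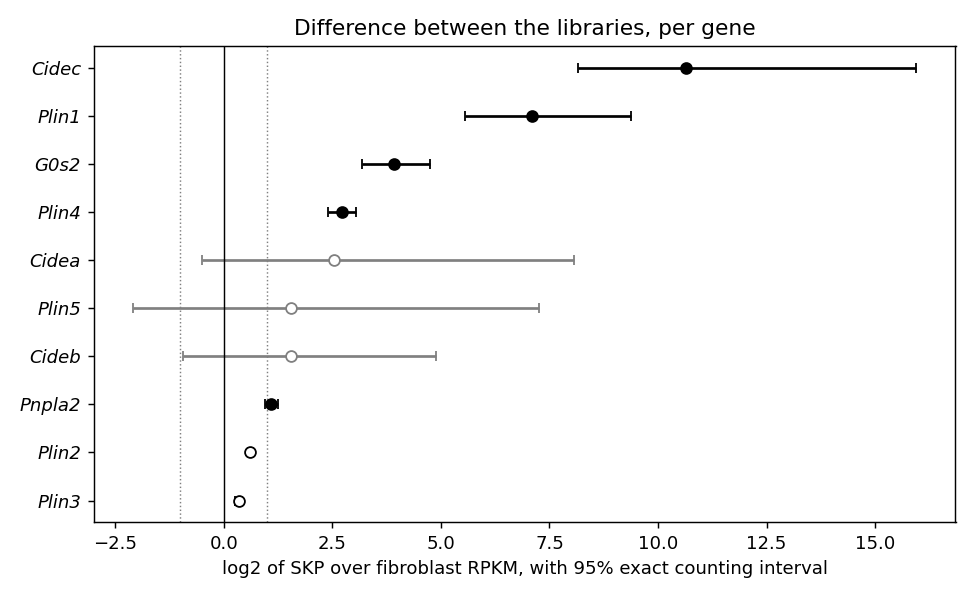
The log2 of the SKP over fibroblast RPKM ratio for each gene, with 95% exact counting intervals, dotted lines at 2-fold, filled points for genes called higher and grey for genes below the minimum level. Cidec at 10.64 and Plin1 at 7.10 stand furthest right, and the grey intervals of Cidea, Plin5 and Cideb cross 0.

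Lipase and inhibitor RNA were both higher in the SKP library, by unequal amounts. Pnpla2 (66853), the lipase, had 1305 reads or 25.3 RPKM in the SKP library against 592 reads or 11.8 RPKM in the fibroblast library. The ratio of 2.14 was just past 2-fold, and its interval of 1.94 to 2.36 reached below that line. G0s2 (14373), the inhibitor, had 249 reads or 15.5 RPKM in the SKP library against 16 reads or 1.03 RPKM in the fibroblast library, a ratio of 15.1 (9.13 to 26.9). Per length, G0s2 stood at 0.612 (0.532 to 0.701) of the Pnpla2 level in the SKP library and at 0.0867 (0.0492 to 0.142) in the fibroblast library. These intervals do not overlap, and the scaling between libraries does not enter a ratio taken within one.

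Set against Plin2 in the same library, Cidec was at 0.267 (0.253 to 0.282) of the Plin2 RPKM in the SKP library and at 0.000255 (6.44e-06 to 0.00142) in the fibroblast library. Plin1 was at 0.0606 of Plin2 in the SKP library and at 0.000672 in the fibroblast library. Plin3 was at 0.354 (0.339 to 0.370) in the SKP library and at 0.424 (0.402 to 0.447) in the fibroblast library, so relative to Plin2 it was lower in the SKP library, while its own RPKM was higher there.

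Within the SKP library the RPKM values ran from Plin2 through Plin3, Cidec, Pnpla2, G0s2, Plin1 and Plin4 down to Cidea, Cideb and Plin5. The ratio of each gene to the next had an interval above 1 down to Cidea, while Cidea, Cideb and Plin5 could not be ordered. In the fibroblast library the order was Plin2, Plin3, Pnpla2, G0s2 and Plin4, with G0s2 and Plin4 indistinguishable (ratio 1.14, 0.629 to 1.96). The other 5 genes had 1 to 3 reads there and no order. All 10 genes together held 368.9 RPKM and 0.0733% of the gene reads in the SKP library, against 192.6 RPKM and 0.039% in the fibroblast library.

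**Figure D4:**
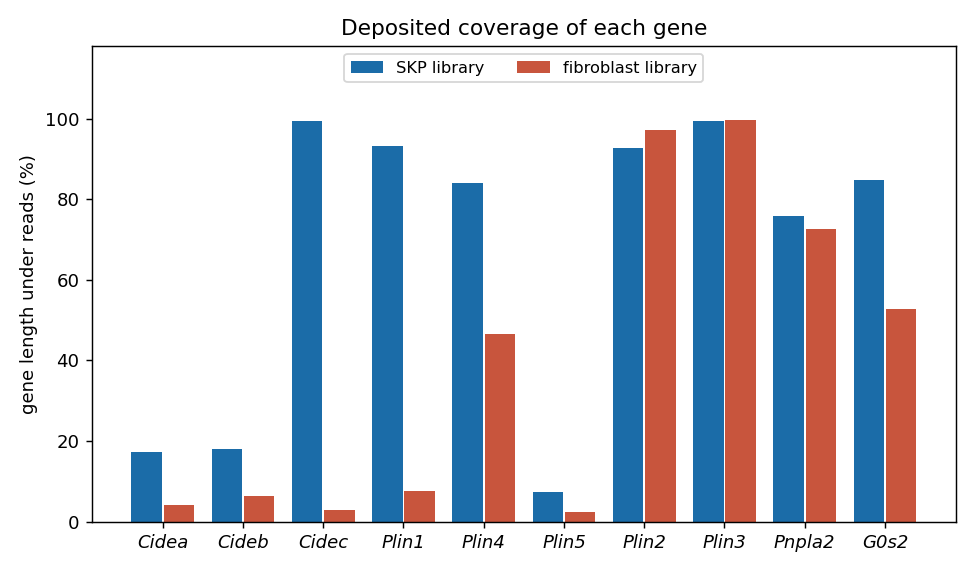
Share of each gene's length under reads, as deposited, with the SKP bar left of the fibroblast bar. Cidec had 99.47% in the SKP library against 2.88% in the fibroblast library, while Plin2 had 92.74% against 97.24%.

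Coverage, the deposited share of the gene length under reads, followed the reads for most of the set. Plin1 had 93.23% in the SKP library against 7.60% in the fibroblast library, Plin4 84.01% against 46.46%, and G0s2 84.65% against 52.77%. Pnpla2 differed little, with 75.82% in the SKP library and 72.65% in the fibroblast library from 1305 and 592 reads.

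In the authors' deposited table, which gives fibroblast over SKP, the log2 ratios of these genes were -10.64 for Cidec, -7.10 for Plin1, -3.92 for G0s2, -2.71 for Plin4 and -1.10 for Pnpla2. Those 5 genes are among the 2659 of the authors' deposited table of filtered genes, which holds every gene with an absolute log2 ratio of at least 1 and an FDR of at most 0.001. That list held 15.25% of all genes in the authors' deposited table, and 1823 of its genes were higher in the SKP library. The FDR there compares these 2 libraries, not the cell types, and the test behind it is not named. By contrast Plin2, at -0.61 in the authors' deposited table, was left out of the filtered list for its ratio.

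Genes that act with this set were described from 4 lists of 20 symbols. Of the triglyceride synthesis and droplet formation genes 18 of 19 matched genes passed the minimum level, 4 were higher in the SKP library and 2 were lower. The higher ones were Acsl1, which activates fatty acids (27.04 RPKM in the SKP library against 5.46 in the fibroblast library, ratio 4.95), the acyltransferase gene Agpat9 (2.75 against 0.567), Dgat2, which makes triglyceride (10.6 against 2.49, ratio 4.27), and the phosphatidate phosphatase gene Lpin1 (18.2 against 8.32). The lower ones were Mogat2, with 2 SKP reads against 34 fibroblast reads, and the sterol esterifying enzyme gene Soat2 (0.844 against 2.58 RPKM). Dgat1, the other triglyceride synthase gene, was at 11.9 RPKM in the SKP library and 11.6 in the fibroblast library. The 2 most abundant were Agpat1, an acyltransferase gene (54.05 against 79.01 RPKM), and the seipin gene Bscl2, which shapes droplets at their birth (38.3 against 24.9). For the list the median log2 ratio was 0.47, beside -0.01 over all genes that passed. Among the latter the share called higher for SKP was 12.1%, and the share called lower was 6.41%.

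Of the lipolysis genes 15 of 20 passed, 4 were higher in the SKP library and 1 was lower, with a median log2 ratio of 0.20. Over all genes that passed, 12.1% were higher and 6.41% were lower. Fabp4, the fatty acid carrier of fat cells, was at 242.5 RPKM in the SKP library against 22.6 in the fibroblast library (ratio 10.7, 9.46 to 12.2). Lipe, the hormone-sensitive lipase that acts after Pnpla2, was at 11.5 RPKM against 1.91 (ratio 6.02, 4.93 to 7.41). The catalytic subunit gene Prkacb of protein kinase A was at 116.5 RPKM in the SKP library against 25.6 in the fibroblast library, and Pde3b, which breaks down cyclic AMP, was at 8.46 against 2.36. Abhd5, the co-activator of Pnpla2, differed by less than 2-fold, with 28.2 RPKM in the SKP library and 25.01 in the fibroblast library, and so did Mgll, the last lipase of the chain, with 7.11 and 7.00. Gnas, the stimulatory G protein gene, had the highest level of the list (524.9 against 584 RPKM).

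Of 20 genes for other droplet surface proteins 18 passed, 1 was higher and 1 was lower, beside 12.1% higher and 6.41% lower over all genes. The median log2 ratio was 0.10. The caveola genes Ptrf (176 RPKM in the SKP library and 165 in the fibroblast library) and Cav1 (114 and 111) were the most abundant. Lpcat2, an enzyme of phosphatidylcholine remodelling, was higher in the SKP library (3.43 against 1.34), and Nsdhl, an enzyme of cholesterol synthesis, was lower (32.1 against 75.5).

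Among 20 regulators of fat genes 17 passed, 3 were higher in the SKP library and 0 were lower, with a median log2 ratio of 0.48. The shares over all genes that passed were 12.1% higher and 6.41% lower. Of the higher ones Zfp423 and Prdm16 passed through the SKP library alone, so their being higher was partly set by the filter. Zfp423, a zinc finger factor of fat precursors, was at 6.65 RPKM in the SKP library against 0.177 in the fibroblast library (ratio 37.6, 23.0 to 66.2). Prdm16, a factor of brown fat, was at 1.25 against 0.202 RPKM, and Cebpa, a late factor of fat cell differentiation, at 23.99 against 7.93 (ratio 3.02, 2.69 to 3.40). Pparg, the master factor of fat cells, was under 2-fold apart, with 13.1 RPKM in the SKP library against 7.34 in the fibroblast library. Cebpb, an early factor, was at 62.2 against 92.2 RPKM, and Ppard at 47.8 against 39.2.

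**Figure D5:**
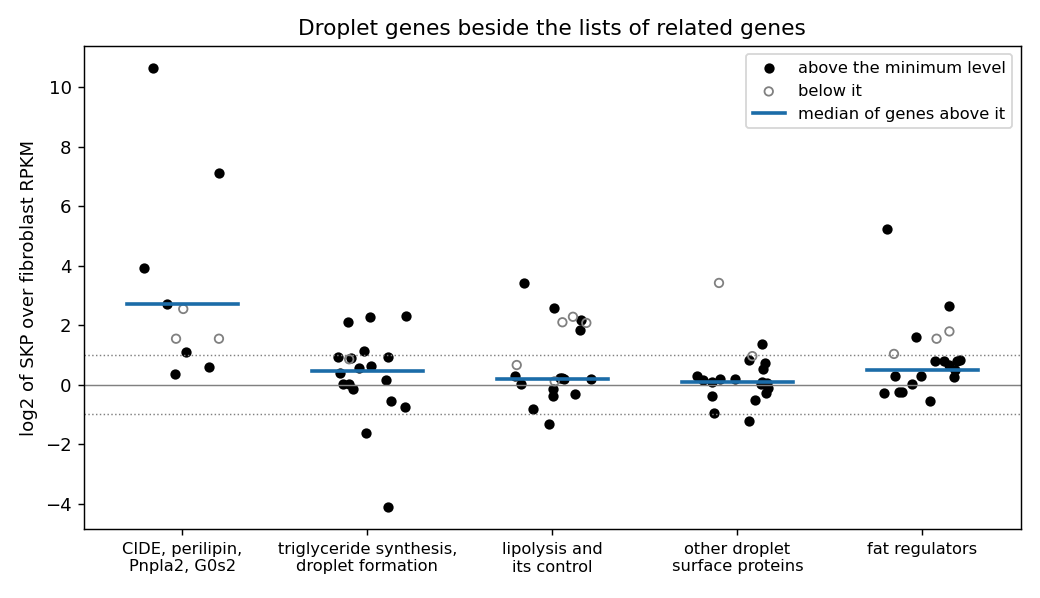
Each point is 1 gene, placed by its log2 SKP over fibroblast RPKM ratio, for the 10 droplet genes and for the genes of the 4 lists, with filled points for genes above the minimum level and open points below it. Blue lines are medians of the filled points, 2.71 for the 7 filled droplet genes (2.04 over all 10) and between 0.10 and 0.48 for the lists. The grey line is the median of all genes that passed, and dotted lines mark 2-fold. Cidec, Plin1, Plin4 and G0s2 passed the minimum level through the SKP library alone. The droplet set was chosen with these values known, so nothing is read from its place beside the lists.

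White fat cell markers lay mostly on the SKP side too. Of 13 markers, among which Fabp4 and Lipe are also on the lipolysis list, 12 passed the minimum level. In the SKP library 9 were higher and 1, Lpl, was lower (149.6 against 321 RPKM), beside 12.1% higher and 6.41% lower over all genes that passed. In the fibroblast library 5 of the 13 reached RPKM 1. The summed level of the markers was 597.8 RPKM in the SKP library against 420.8 in the fibroblast library, of which Lpl made up most in fibroblasts. The adipokine gene Adipoq had 830 reads in the SKP library and 4 in the fibroblast library, and Lep and Retn had 91 and 135 SKP reads and 0 fibroblast reads. In this bulk RNA a larger share of fat-like cells and more of these RNAs per cell cannot be told apart, and the part of such cells in the droplet gene values was not tested.

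Among other markers, the brown fat list summed to 10.4 RPKM in the SKP library against 4.21 in the fibroblast library. Of its 10 genes 3 were above the minimum level, all higher, but these 3 passed through the SKP library alone. The ratio was above 1 for 5 of the 10, while Dio2, Cox7a1 and Cpt1b, below the minimum level, had ratios of 0.513, 0.763 and 0.486. Ucp1, the defining gene of the list, had 1 SKP read and 0 fibroblast reads. Sebocyte markers, from the lipid-rich gland cells of skin, summed to 5.54 against 3.53 RPKM, with 2 of 9 matched genes above the minimum level and 1 of them, Krt79, higher. Sums for mast cells (152 against 2.07 RPKM, 7 of 8 higher), keratinocytes (32.8 against 2.98, 6 of 6) and macrophages and leukocytes (30.8 against 5.25, 4 of 5) were also higher in the SKP library, as were those of skeletal muscle markers (238 against 131, 9 of 10). Dermal fibroblast markers summed to 10825 against 10888 RPKM, with 4 of 10 higher and 2 lower, and SKP markers to 2577 against 3259, with 2 of 10 higher and 1 lower. For all these counts the shares over all genes that passed were 12.1% higher and 6.41% lower. In the fibroblast library RPKM 1 was reached by 0 keratinocyte, 1 mast cell, 2 macrophage and leukocyte and 1 sebocyte markers. The other counted markers of these 4 lists passed the minimum level through the SKP library alone, so their being higher was partly set by the filter. The part of these other cell types in the droplet gene values was not tested.

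Genes with levels nearest to 3 of the members were sought by the distance in log2(RPKM + 0.1) over the 2 libraries, which is a weak measure with so few points. Nearest to Cidec were Tpsb2 (43.2 RPKM in the SKP library and 0.0499 in the fibroblast library), a mast cell tryptase, Lcn2 (71.8 and 0.0637), a lipocalin, and Kera (47.9 and 0.167), a corneal proteoglycan gene. Plin2 lay nearest to Cmtm3 (192 and 124), Mmp11 and Septin9, and Pnpla2 to Sod2 (25.3 and 11.98), the mitochondrial superoxide dismutase gene, Slc19a2 and 2610524H06Rik.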

How the data were processed

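Poly(A) RNA of 1 SKP and 1 fibroblast library was analysed, grouped by the labelled cell type. Per the file headers the deposited counts are unique reads per gene, given as whole numbers. Their totals, 18949264 in the SKP library and 18406244 in the fibroblast library, exceed the deposited numbers of unique matches, 14578907 and 14481657. It is therefore not known how reads that match several positions entered the counts. The deposited RPKM values equal these counts scaled by gene length and by the library's total. Coverage, in percent of gene length, and percent of reads mapped were deposited as such, per the file headers. Reads were mapped to genes with up to 2 mismatches, at 85.13% and 81.65% of all reads in the SKP and the fibroblast library. Per the submitters' processing notes mm9 was used. Aligner, counter, annotation and strand are not given in these sources, so overlapping genes could not be separated. The authors' deposited comparison table holds log2 ratios of fibroblast over SKP RPKM and p-values with FDR from an unnamed test.

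Ratios of SKP over fibroblast were computed from the counts with a 95% exact (Clopper-Pearson) interval. Where a gene had 0 reads, 3 reads were used as a floor. No test, count model or leave-one-out could be run on single libraries, and no p-values were computed. The members and lists were chosen with earlier results of these data known. Named genes were all 10 members, from each of the 4 lists up to 4 called genes with the largest ratio and 2 with the highest RPKM, and where given, markers with the highest SKP RPKM. Other genes, such as Abhd5, Mgll, Dgat1, Pparg, Soat2, Lpin1, Adipoq, Lep, Retn and Ucp1, were named after their values were seen. One gene of the lipolysis list is not reported here by name. Ldah was matched through its gene ID, and Mogat1, Awat1 and Krt15 had no row. A nearest gene whose symbol had become a date was named through its gene ID. Promoters came from RefSeq (GRCm38.p6) and shared 49-base stretches from GENCODE M21 transcripts, on both strands. Calls were tried on simulated Poisson counts drawn from the pooled libraries, with planted differences. Such counts hold counting error alone, so the trial says nothing of variation between cultures. Python 3.11.15, pandas 2.3.3, numpy 2.4.6, scipy 1.17.1 and matplotlib 3.10.9 were used.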

Additional observations from a re-analysis of the deposited data

How the results depend on the processing

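The 5 members higher and 0 lower in the SKP library stayed at 5 and 0 under each alternative run: log2(RPKM + 1), median-of-ratios and upper-quartile scaling, no filter and RPKM of at least 5. The 2 scalings shifted every log2 ratio by 0.02 and -0.05, and each member's log2 ratio then stayed inside its interval. On the log2(RPKM + 1) scale, which compresses low values, 4 members moved outside theirs, Cidec to 5.66, Plin1 to 3.54, G0s2 to 3.03 and Plin4 to 1.86. Genes higher in the SKP library numbered 2197 of 17431 with no filter and 828 of 8968 at RPKM of at least 5, against 1455 of 12053. Genes lower numbered 508 of 12053 on the log2(RPKM + 1) scale and 478 of 8968 at RPKM of at least 5, against 772 of 12053. With no filter 6 of 20 fat regulators, 7 of 20 lipolysis genes and 2 of 20 other droplet surface genes were higher. With the filter these were 3 of 17, 4 of 15 and 1 of 18. The median log2 ratio of the fat regulators was 0.72 with no filter and 0.28 at RPKM of at least 5, against 0.48. On the log2(RPKM + 1) scale and at RPKM of at least 5, 0 lipolysis genes and 0 triglyceride synthesis genes were lower and 0 other droplet surface genes were higher. The filters change which genes are counted, and the log scale shrinks ratios of low genes by construction. On the given strand alone 1 member, not 2, held AGGTCA. No paired analysis was possible because each group has 1 library, and leaving out a library was not possible for the same reason. Depth limits Cidea, Cideb and Plin5, and the fibroblast values of Cidec and Plin1.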

Other observations

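Plin2 had more reads in the SKP library (6837 against 4355 in the fibroblast library) but a smaller share of its length under them (92.74% against 97.24%), a difference of 4.5 points in favour of the fibroblast library. Among 247 genes with at least 4000 reads in both libraries and more in the SKP library, 3 had coverage at least 4 points lower there, a limit chosen after the value of Plin2 was seen. Of the 49-base stretches of the Plin2 transcripts 2.65% also occur in another gene, the pseudogene Gm12551. The cause of the lower coverage was not tested.

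Ltb4r2, a leukotriene receptor gene whose annotation overlaps that of Cideb, had 39 reads in the SKP library and 3 in the fibroblast library (1.43 and 0.113 RPKM), more than Cideb itself in both. How reads in the shared region were assigned was not tested.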
